A study of Mus musculus with 6 samples.

Results

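The genes that write and erase DNA methylation were examined in RNA-seq libraries of whole mouse testis at 12 days post-partum. They were chosen by name, as 8 genes: Dnmt1, Dnmt3a, Dnmt3b, Dnmt3l, Uhrf1, Tet1, Tet2 and Tet3. All 8 were found among the 49671 gene rows of the count table, and all 8 passed the filter on low counts that left 18040 genes for testing. The groups were 3 wild-type mice (Ankrd31+/+) and 3 mice with homozygous loss of Ankrd31 (Ankrd31-/-), all on the C57BL/6J strain background. ANKRD31 is an ankyrin-repeat protein that works with the machinery making the DNA breaks of meiosis, and the series asked how its absence affects the testis transcriptome. The labels describe neither the allele nor a treatment, and whole testis was used without cell sorting.

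DNA methylation is the addition of a methyl group to cytosine, mostly where it is followed by guanine (CpG). DNMT1 copies the mark onto the new strand after replication, guided there by UHRF1, which binds CpG sites methylated on the old strand alone. DNMT3A and DNMT3B set the mark on unmethylated DNA, and DNMT3L, which has no catalytic activity of its own, helps them in male germ cells, where imprints and the silencing of transposons are laid down before birth. TET1, TET2 and TET3 oxidise methylcytosine and so start its removal. At 12 days the tubules hold spermatogonia, the first wave of spermatocytes in early meiotic prophase, and Sertoli cells.

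Start regions of 4 of the genes are printed because they span the range of CpG content, the substrate of these enzymes, and 1 of them belongs to the gene with the lowest level. RefSeq (GRCm38.p6) listed 15 start sites for the 8 genes, at least 1 for each. In each sequence the 250 bases before the start are given 5′ to 3′ on the gene's strand, and capitals mark CpG. The windows are chr9:20959889-20960138 (minus strand, Dnmt1), chr2:153649199-153649448 (plus, Dnmt3b), chr10:78049592-78049841 (plus, Dnmt3l) and chr3:133544391-133544640 (minus, Tet2), and none of them overlaps an annotated exon.
Dnmt1: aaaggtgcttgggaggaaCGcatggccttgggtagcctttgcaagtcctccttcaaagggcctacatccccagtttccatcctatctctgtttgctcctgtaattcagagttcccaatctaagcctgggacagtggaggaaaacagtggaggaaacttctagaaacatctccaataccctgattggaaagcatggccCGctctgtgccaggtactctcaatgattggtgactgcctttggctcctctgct
Dnmt3b: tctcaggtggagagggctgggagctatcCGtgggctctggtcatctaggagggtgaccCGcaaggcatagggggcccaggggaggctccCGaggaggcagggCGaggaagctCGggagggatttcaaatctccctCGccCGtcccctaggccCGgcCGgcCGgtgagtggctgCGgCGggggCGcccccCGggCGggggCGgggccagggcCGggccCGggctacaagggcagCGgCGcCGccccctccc
Dnmt3l: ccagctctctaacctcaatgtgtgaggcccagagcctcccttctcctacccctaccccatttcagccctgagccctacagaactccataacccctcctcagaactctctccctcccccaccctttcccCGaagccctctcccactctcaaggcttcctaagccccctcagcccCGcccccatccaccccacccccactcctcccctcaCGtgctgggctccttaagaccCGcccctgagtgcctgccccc
Tet2: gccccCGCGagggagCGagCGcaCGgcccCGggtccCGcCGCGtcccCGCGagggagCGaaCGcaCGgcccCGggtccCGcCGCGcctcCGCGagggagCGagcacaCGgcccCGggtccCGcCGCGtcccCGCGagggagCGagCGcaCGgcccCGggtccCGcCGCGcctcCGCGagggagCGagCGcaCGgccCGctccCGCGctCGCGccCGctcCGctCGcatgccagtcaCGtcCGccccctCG
These windows hold 2, 21, 4 and 51 CpG. Of 32851 windows of the same length before RefSeq start sites, the median held 6 CpG, and 99.9% held fewer than that of Tet2. Dnmt3l has 3 listed starts, with 5, 4 and 3 CpG, all under the median. Dnmt1 has 3 starts, and the other 2 windows hold 7 and 26 CpG. In all, 10 of the 15 windows held at least 10 CpG, against 37.8% of all windows. The counts are per gene, so it cannot be read from them which start was in use, and the long and short forms of Dnmt3a or the somatic and germ cell forms of Dnmt1 were not told apart.

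The libraries held 21014060 to 22706296 counts. Markers of Sertoli cells, spermatogonia and early spermatocytes were present in all 6. Among them were the Sertoli factor Sox9 (217.65 to 258.63 CPM, counts scaled to a common library size) and the synaptonemal complex gene Sycp3 (176 to 366.16 CPM). Pgk2 of late spermatocytes lay between 0 and 0.18 CPM. The 11 pachytene spermatocyte markers, Pgk2 among them, summed to 177.7 to 318.3 CPM, with Piwil1 at 7.92 to 20.92 CPM. Replicate 1 of both genotypes stood apart from the other 4 libraries on the first principal component, and wild-type replicate 3 had more RNA of epididymis and rete genes (summed level of 9 markers 137.1 CPM, against 66.3 to 82.9 CPM in the others). Ankrd31 itself measured 84.94, 52.29 and 63.25 CPM in wild-type libraries, and 40.84, 33.15 and 38.02 CPM in knockout libraries, without overlap. Its log2 fold change was -0.84 ± 0.17 (SE). It did not pass in edgeR's quasi-likelihood test after Benjamini-Hochberg adjustment over all genes (adjusted p = 1), and passed with the replicate number as a block (-0.82 ± 0.07, edgeR adjusted p = 0.00505). The counts cover all exons, so this checks the labels only in part.

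None of the 8 genes passed the test between genotypes. Among all 18040 tested genes edgeR called none without the block, that is 0 (0%), and 374 (2.07%) had an unadjusted p under 0.05. Limma voom called 0 (382 unadjusted) and DESeq2 called 2 (242 unadjusted). With the block edgeR called 8 genes (0.0443%), none of them a writer or eraser. None of the 8 had an unadjusted p under 0.05 in either fit, where the background was 7.48% of tested genes with the block. In none did the knockout and wild-type libraries separate, against 3.50% of tested genes with all knockout libraries lower and 3.09% with all higher. All 8 log2 fold changes were below 0, against 52.2% of tested genes, but Dnmt3a lay above 0 with DESeq2, with the size factors of DESeq2 in edgeR and under 2 other filters. The median over the 8 genes was -0.043, beside -0.005 over all tested genes. When either wild-type replicate 2 or 3, or the first knockout replicate, was left out, 4 of the 8 lay below 0.

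**Figure D1:**
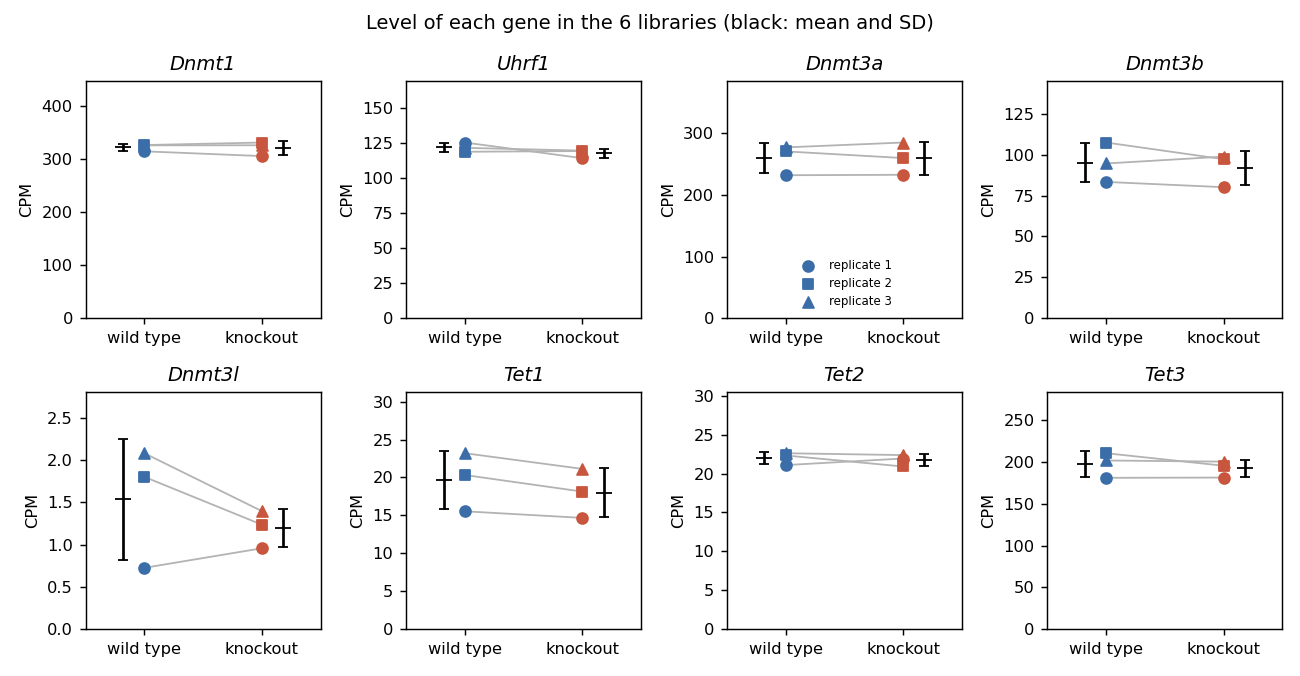
Level of each gene in CPM (vertical axes start at 0) in the 3 wild-type (blue) and 3 knockout (red) libraries. Grey lines join libraries of the same replicate number, marker shapes give the number, and black bars are means and SD. The genotypes overlap for all 8 genes.

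The maintenance genes varied little between libraries. Dnmt1, which encodes the maintenance methyltransferase, measured 315, 326.8 and 326.3 CPM in wild-type libraries, and 306, 331.6 and 326.4 CPM in knockout libraries. The 6 values span 306 to 331.6 CPM and the genotypes overlap throughout. Mean levels were 323 ± 6.67 CPM in the wild type and 321 ± 13.5 CPM in the knockout (SD, n = 3 each). Its log2 fold change was -0.01 ± 0.06 (SE, edgeR adjusted p = 1), and the 95% interval ran from -0.14 to 0.13, that is from 9.2% lower to 9.2% higher.

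Uhrf1, whose product brings DNMT1 to such sites, measured 125.6, 119 and 121.8 CPM in wild-type libraries, and 114.4, 119.5 and 119.8 CPM in knockout libraries. Knockout replicate 1 was the lowest and wild-type replicate 1 the highest, and the other 4 libraries lay between 119 and 121.8 CPM. Uhrf1 had a log2 fold change of -0.05 ± 0.06 (edgeR adjusted p = 1), with an interval from 11.7% lower to 5.5% higher. Both genes serve replicating cells, and the replication clamp gene Pcna gave 75.9 ± 6.17 and 73.7 ± 2.80 CPM (SD, n = 3 each) and the division marker Mki67 223 ± 17.1 and 241 ± 33.0 CPM. Per kilobase of exon, the ratio of Uhrf1 to Dnmt1 within a library was 0.691, 0.631 and 0.647 in the wild type and 0.647, 0.624 and 0.636 in the knockout. The range of log2 levels over the 6 libraries was 0.12 for Dnmt1 and 0.13 for Uhrf1, against a median of 0.25 over the 11019 genes with at least 10 CPM. Only 6.6% and 11.2% of those genes had a smaller range.

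The de novo enzymes differed more between libraries than between genotypes. Dnmt3a measured 232.2, 270.9 and 277.4 CPM in wild-type libraries, and 232.9, 260.1 and 285.3 CPM in knockout libraries. Replicate 1 was the lowest in both genotypes, with values that nearly coincide. Mean levels were 260 ± 24.4 CPM in the wild type and 259 ± 26.2 CPM in the knockout (SD, n = 3 each), with a log2 fold change of -0.004 ± 0.09 (edgeR adjusted p = 1) and an interval from 13.4% lower to 14.9% higher. With the block the interval narrowed to 6.4% lower to 6.2% higher.

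Dnmt3b measured 83.31, 107.4 and 94.59 CPM in wild-type libraries, and 80.1, 97.21 and 98.8 CPM in knockout libraries. Again replicate 1 was lowest in both genotypes, and wild-type replicate 2 was highest. Between genotypes Dnmt3b had a log2 fold change of -0.05 ± 0.11 (edgeR adjusted p = 1), with an interval from 18.3% lower to 14.6% higher. Dnmt3c, a rodent copy of Dnmt3b that methylates young transposons in fetal male germ cells, lies next to it and was present at 5.07 ± 0.75 and 4.62 ± 0.76 CPM (SD, n = 3 each). Of the 50-base words in the annotated Dnmt3c transcript, 23.6% also occur in Dnmt3b transcripts, as do 9.8% the other way round. Reads from the shared stretches may have been lost or misassigned, so both levels are uncertain, while Dnmt3a shares none with Dnmt3b.

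Dnmt3l was close to the limit of detection. Its raw counts were 16, 41 and 44 in the wild-type and 21, 27 and 31 in the knockout libraries, or 0.724, 1.803 and 2.083 CPM and 0.956, 1.236 and 1.397 CPM. The wild-type values span the whole range of the knockout values. The log2 fold change of -0.36 ± 0.36 (edgeR adjusted p = 1) had an interval from 55.7% lower to 37.4% higher. With the block it was -0.32 ± 0.27 (edgeR adjusted p = 0.844), with an interval from 46.4% lower to 19.5% higher. The replicate number held 75% of the variance of the log2 levels of Dnmt3l, against a median of 57.3% over tested genes. Leaving out wild-type replicate 1 gave -0.695 and leaving out wild-type replicate 3 gave -0.074. The parts of depth and of the spread between mice in this width were not tested. Aire overlaps Dnmt3l on the opposite strand and had 21 counts in all libraries together, 11.7% of those of Dnmt3l. The strand setting of the counting is not given in the sources used here, so reads of the pair may not be separate.

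Among the eraser genes, Tet3 had the highest RNA level. It measured 181.2, 210.7 and 202 CPM in wild-type libraries, and 181.5, 195.7 and 200.6 CPM in knockout libraries, with replicate 1 lowest and nearly equal in both. The log2 fold change was -0.04 ± 0.07 (edgeR adjusted p = 1), with an interval from 13.0% lower to 8.8% higher. Per kilobase, Tet3 made up 82.5%, 82.3% and 80.6% of the summed Tet levels in the wild-type and 82.6%, 82.6% and 81.3% in the knockout libraries. The share was thus almost fixed over all 6.

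Tet1 measured 15.53, 20.32 and 23.2 CPM in wild-type libraries, and 14.66, 18.13 and 21.13 CPM in knockout libraries. It was the only gene of the 8 that was lower in the knockout in 3 of 3 same-number pairs, a pattern shown by 14.7% of all tested genes. The log2 ratios of the pairs were -0.08, -0.16 and -0.13. The spread between replicate numbers was larger than that between genotypes. The log2 fold change was -0.13 ± 0.17 without the block (edgeR adjusted p = 1) and -0.13 ± 0.08 with it (edgeR adjusted p = 0.767), and the blocked interval ran from 18.7% lower to 2.9% higher. Without wild-type replicate 3 the unblocked value was 0.01.

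Tet2, which encodes a TET enzyme without the CXXC DNA-binding domain found in full-length forms of the other two, measured 21.1, 22.34 and 22.63 CPM in wild-type libraries, and 21.95, 20.92 and 22.39 CPM in knockout libraries. Its log2 range over the 6 libraries was 0.11, and 6.0% of genes with at least 10 CPM had a smaller one. Tet2 had a log2 fold change of -0.02 ± 0.08 (edgeR adjusted p = 1), with an interval from 12.8% lower to 11.9% higher.

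**Figure D2:**
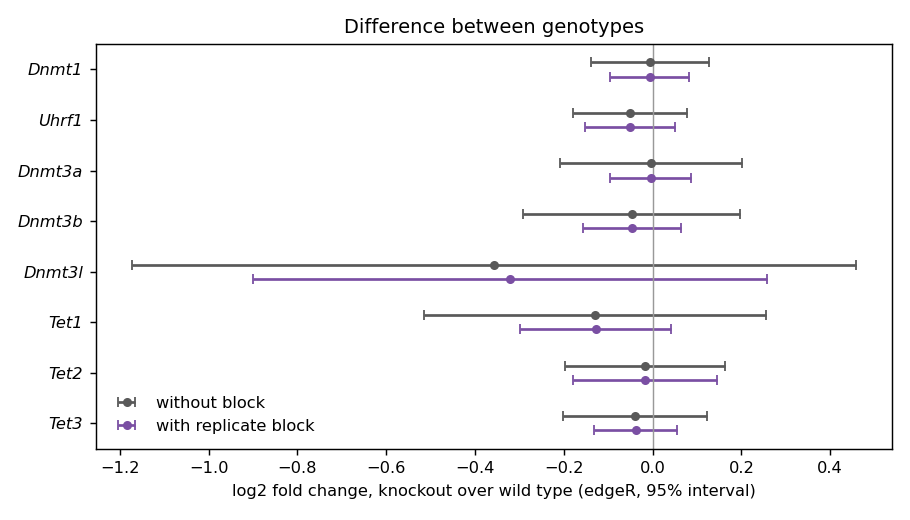
Log2 fold change of each gene, knockout over wild type, with its 95% interval from edgeR (horizontal axis), without (grey) and with (purple) the replicate number as a block. Every interval includes 0, and that of Dnmt3l, from -1.17 to 0.46 without the block, is the widest.

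Levels of different genes were compared per length, as CPM per kilobase of summed exons. Dnmt1 was highest at 43.7 ± 1.29, followed by Uhrf1 at 28.2 ± 0.86, Dnmt3b at 18.3 ± 2.0, Dnmt3a at 15.6 ± 1.36 and Tet3 at 11.7 ± 0.71 CPM per kilobase (SD over 6 libraries). Tet2 and Tet1 followed at 1.30 ± 0.04 and 1.28 ± 0.23, and Dnmt3l came last at 0.46 ± 0.17 CPM per kilobase. Ranges over the libraries overlapped between the neighbours Dnmt3b and Dnmt3a and between Tet2 and Tet1, whose order was also reversed in the wild-type libraries alone. The other 5 neighbours did not overlap. The widest gap was between Tet3 and Tet2, 9.01-fold in the means. Dnmt1 stood above 92.4% of tested genes on this scale, Tet3 above 65.9%, Tet1 above 23.5% and Dnmt3l above 11.1%. Exon lengths pool all annotated isoforms, 16.6 kilobases for Dnmt3a and 5.11 for Dnmt3b, so the scaled level understates that of the form in use where some isoforms are not. Before scaling, Dnmt3a ranked second in CPM, and 4 of the 8 ranks changed.

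**Figure D3:**
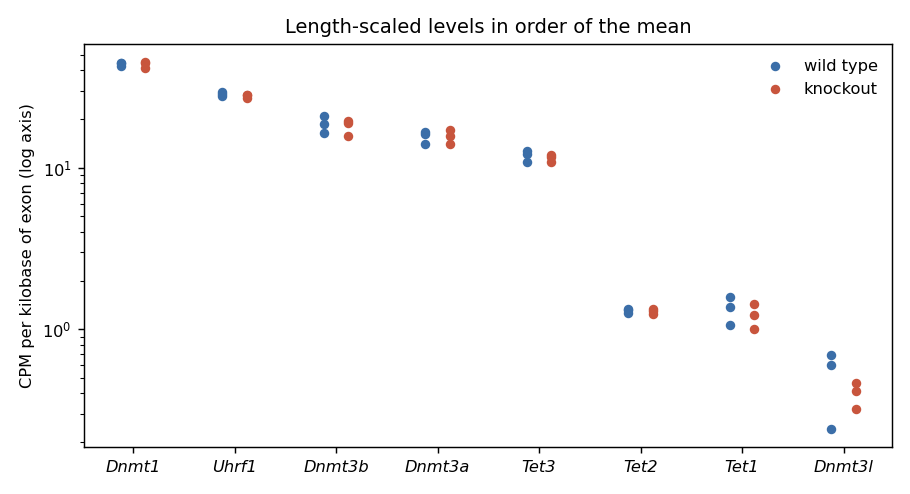
CPM per kilobase of exon (log axis) of the 8 genes, ordered by the mean over 6 libraries, with a point for each wild-type (blue) and knockout (red) library. Dnmt1 lies between 41.5 and 44.9, Tet1 between 0.997 and 1.58, and the genotypes overlap for each gene.

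Some of the 8 genes varied with the replicate number. In the blocked model, a test of the replicate number itself, added after the values had been seen, called Tet1 (edgeR adjusted p = 0.012), Dnmt3a (0.0155) and Dnmt3b (0.0169), with the adjusted p over all genes in brackets. These are 3 of 8 genes, against 8.80% of all tested genes (1587). That share covers genes of all levels, and 11019 of the 18040 had at least 10 CPM, these 3 among them. Relative to the mean of the 6 libraries, log2 levels in replicate 1 of the wild type and the knockout were -0.26 and -0.34 for Tet1, -0.16 and -0.15 for Dnmt3a and -0.16 and -0.22 for Dnmt3b. In the other 4 libraries they ran from -0.03 to 0.32, 0.01 to 0.14 and 0.02 to 0.21. Tet3 (-0.11 and -0.10 in replicate 1) and Dnmt3l (-0.76 and -0.40) had adjusted p-values of 0.105 and 0.137 in the same edgeR test. Dnmt1, Uhrf1 and Tet2 had 0.46, 0.972 and 0.854. The labels do not say what the numbers mark. No gene of the 8 was called without wild-type replicate 1, knockout replicate 1, knockout replicate 3 or both libraries of number 1, and Dnmt3b alone without wild-type replicate 3 or both libraries of number 3. With DESeq2, Dnmt3a and Dnmt3b were called and Tet1 was not (adjusted p = 0.0686).

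Some cell type marker lists also set replicate 1 apart. Early meiotic prophase markers (14 genes) summed to 2622.1, 1416.7 and 1827.8 CPM in wild-type libraries, and to 2610, 1852.7 and 2141 CPM in knockout libraries, with replicate 1 highest in both. Undifferentiated spermatogonia markers (12 genes) summed to 482.3 and 482.8 CPM in replicate 1 and to between 512 and 575.4 CPM in the other 4. Interstitial stroma markers (8 genes) gave 2761.3 and 2888.1 CPM in replicate 1 and 3076.2 to 3798.2 CPM elsewhere. Pachytene spermatocyte markers (11 genes) gave 318.3 and 264 CPM in replicate 1 and 177.7 to 215.2 CPM elsewhere. Endothelial markers (10 genes) gave 170.7 and 159.8 CPM in replicate 1 and 177.5 to 209.1 CPM elsewhere. Sertoli and dividing cell markers did not set replicate 1 apart, at 7246.4 and 7257.5 CPM and at 2018.6 and 2021.1 CPM, within the ranges of the others. No marker of these lists was at 0 in all libraries. The part of cell composition in the levels of Dnmt3a, Dnmt3b and Tet1 was not tested, and in whole testis fewer cells of a type and less RNA per cell cannot be told apart.

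**Figure D4:**
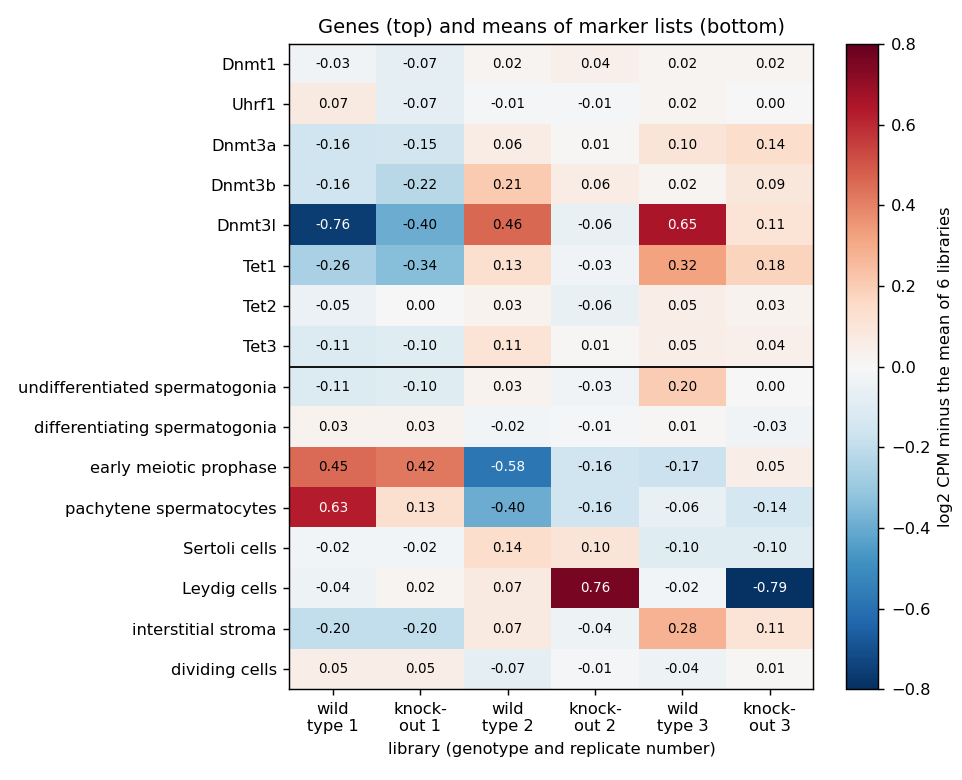
Log2 CPM minus the mean of the 6 libraries for the 8 genes (top) and averaged over marker lists (bottom), with libraries in columns ordered by replicate number. Tet1, Tet3, Dnmt1, Dnmt3a, Dnmt3b and Dnmt3l are below 0 in both libraries of number 1, Dnmt1 only slightly (-0.03 and -0.07). Early meiotic prophase markers stand at 0.45 and 0.42 there.

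For each gene the tested gene with the closest pattern was found, as the smallest root mean square difference of centred log2 levels over the 6 libraries among genes with 0.25 to 4 times its level. For Dnmt3a it was Peg3, an imprinted zinc finger gene, at 0.012 against a median of 0.134 over 4499 candidates. Peg3 measured 156.12, 183.56 and 189.32 CPM in wild-type libraries, and 158.19, 175.55 and 189.72 CPM in knockout libraries. For Uhrf1 it was the tumour suppressor gene Trp53 (0.015), for Dnmt1 the chromatin remodeller subunit gene Smarcd2 (0.011) and for Tet3 the cell polarity gene Llgl1 (0.014). The others were Synm for Dnmt3b (0.017), the growth factor gene Tgfb2 for Tet1 (0.039), Zfp709 for Tet2 (0.016) and St18 for Dnmt3l (0.113). Among the 8 themselves, Dnmt1 and Uhrf1 were closest (0.047), and Dnmt3a was closest to Tet3 (0.057). With 6 libraries and up to 9049 candidates a close match is a description only.

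Genes that work with the writers and erasers were taken from 7 lists, and no gene of any list passed in edgeR with or without the block. Of 13 partners of maintenance methylation, 7 were higher and 6 lower, with a median log2 fold change of 0.008. The chromatin remodeller gene Hells, needed for normal methylation of repeats, measured 442, 392.6 and 418.5 CPM in wild-type libraries, and 460.7, 443 and 476.5 CPM in knockout libraries. Its groups did not overlap, where 3.09% of tested genes had all knockout libraries higher. Its log2 fold change was 0.14 ± 0.07 (edgeR adjusted p = 1, and 0.494 with the block). Pclaf, a PCNA-binding protein gene, had -0.26 ± 0.19, and the H3K9 methyltransferase gene Ehmt2, the highest of the list per kilobase, -0.05 ± 0.07. The value of Pclaf was -0.14 without knockout replicate 1 and -0.51 without knockout replicate 2.

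Of 16 genes that guide de novo methylation in the germ line, 5 were higher and 11 lower (median -0.009). Spocd1, which links piRNAs to the methylation of transposons, measured 5.43, 6.69 and 5.82 CPM in wild-type libraries, and 5.01, 4.76 and 5.14 CPM in knockout libraries, without overlap. Of all tested genes, 3.50% had all knockout libraries lower. Spocd1 had -0.27 ± 0.14 and did not pass (edgeR adjusted p = 1, and 0.724 with the block). The corepressor gene Trim28, whose groups did not overlap either, had -0.06 ± 0.06 and the piRNA pathway gene Mael 0.00 ± 0.08. Of 11 readers of methylated DNA and imprints, 3 were higher and 8 lower (median -0.008). Zfp57, which protects imprints, had -0.31 ± 0.14 (edgeR adjusted p = 1, and 0.645 with the block), from wild-type levels of 6.02, 6.82 and 5.54 CPM and knockout levels of 4.78, 5.27 and 4.78 CPM. Mbd3 had -0.06 ± 0.08.

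On the side of removal, 10 of 18 tested demethylation and base excision genes were higher and 8 lower (median 0.016). Gadd45b, a stress gene tied to active demethylation, measured 27.26, 22.47 and 24.76 CPM in wild-type libraries, and 31.74, 27.88 and 28.29 CPM in knockout libraries. These groups did not overlap, where 3.09% of tested genes had all knockout libraries higher. The log2 fold change of 0.24 ± 0.10 did not pass (edgeR adjusted p = 1, and 0.41 with the block). The glycosylase gene Neil1, with all knockout libraries lower, had -0.30 ± 0.16. Parp1 had 0.03 ± 0.06, and lay between 0.008 and 0.055 when 1 library was left out. Among 15 genes of methyl donor and 2-oxoglutarate metabolism, 9 were higher and 6 lower (median 0.019). Mat2a, whose product makes the methyl donor S-adenosylmethionine, had 0.09 ± 0.10, Ahcy, whose product clears the spent donor, 0.15 ± 0.09 and Bhmt 0.60 ± 0.35. When 1 library was left out, Mat2a ran from 0.01 (without knockout replicate 2) to 0.17 (knockout replicate 3), Ahcy from 0.07 (knockout replicate 3) to 0.21 (knockout replicate 2) and Bhmt from 0.345 (knockout replicate 2) to 0.89 (knockout replicate 3).

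Imprinted genes, whose expression from 1 parental copy depends on methylation, were the list farthest from 0. Of 24 members, 18 were lower and 6 higher, where 52.2% of all tested genes were lower. The median log2 fold change was -0.122 beside -0.005 for all tested genes, and none passed. Meg3, a maternally expressed noncoding RNA gene, measured 51.34, 59.02 and 42.18 CPM in wild-type libraries, and 43.44, 37.18 and 28.2 CPM in knockout libraries. It was lower in 3 of 3 pairs, with -0.49 ± 0.17 without the block (edgeR adjusted p = 1) and -0.49 ± 0.08 with it (edgeR adjusted p = 0.0775). It passed in DESeq2 with the block (adjusted p = 0.0108). Mest had -0.43 ± 0.15, from wild-type levels of 21.51, 31 and 32.38 CPM and knockout levels of 22.04, 22.39 and 18.74 CPM, and Gnas, the highest of the list, -0.08 ± 0.09. Ndn, Nnat, Zim1 and Gnas, and no other member of the list, were also lower in 3 of 3 pairs. This pattern was shown by 14.7% of all tested genes. The log2 ratios were -0.03, -0.74 and -0.42 for Ndn and -0.03, -0.53 and -0.54 for Nnat. They were -0.17, -0.23 and -0.07 for Zim1 and -0.03, -0.02 and -0.21 for Gnas. Others were higher in pair 1. H19 had log2 ratios of 0.11, -0.55 and -0.93 in pairs 1, 2 and 3, Mest 0.04, -0.47 and -0.79, and Dlk1 0.05, -0.55 and -0.47. With the block and without both libraries of number 1, 7 of the 24 passed in edgeR, beside 63 of 18104 tested genes. Of these 7, Peg10 was higher in the knockout, with log2 ratios of 0.58 and 0.47 in pairs 2 and 3, and the others were lower. The same fit called 1 of the 24, Meg3, without pair 2 and none without pair 3. Without wild-type replicate 2 the list had 13 members lower and a median of -0.012. Interstitial stroma markers summed to 2761.3, 3341.9 and 3798.2 CPM in wild-type libraries and 2888.1, 3076.2 and 3325.7 CPM in knockout libraries. They were likewise lower in pairs 2 and 3 and not in pair 1. The same held for undifferentiated spermatogonia markers and for peritubular myoid markers. The latter (7 genes) summed to 938.9, 1056 and 1064.8 CPM in wild-type and 979, 963 and 1022.5 CPM in knockout libraries. Endothelial and differentiating spermatogonia markers were lower in the knockout in each pair, and Sertoli markers were higher in each. The part of any of these markers in the imprinted genes' values was not tested.

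Germ cell genes that carry methylation-controlled promoters leaned the other way, with 12 of 17 higher and 5 lower (median 0.055). Of all tested genes, 52.2% were lower. The TFIID subunit gene Taf7l had 0.16 ± 0.09, the piRNA pathway gene Tdrd1 -0.09 ± 0.06 and the RNA-binding protein gene Dazl 0.04 ± 0.11, and none passed (edgeR adjusted p = 1 for each). With the block and without both libraries of number 1, 4 of the 17 passed in edgeR, beside 63 of 18104 tested genes. They were Sycp1, Sycp3, Tex101 and Hormad1. None of the 17 passed in the same fit without pair 2 or without pair 3. Taf7l stood at 0.08 when wild-type replicate 2 was left out and at 0.10 when knockout replicate 1 was, and Tdrd1 at -0.03 without wild-type replicate 1. This lean turned without wild-type replicate 2 or knockout replicate 1, where 13 and 12 of the 17 were lower. Beside it, 12 of 14 early meiotic prophase markers were higher in the knockout, but Sycp1, Sycp3, Tex101 and Hormad1 are in both lists. The lists are thus not independent. The summed level of the markers was higher in the knockout in pairs 2 and 3 and not in pair 1 (2622.1 CPM in the wild type, 2610 CPM in the knockout). The part of these markers was not tested.

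**Figure D5:**
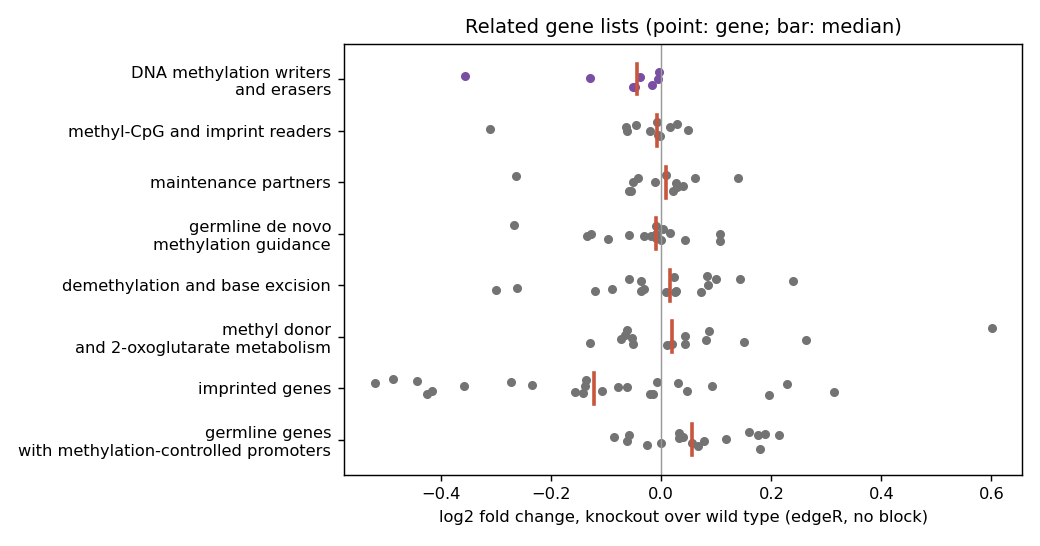
Log2 fold change, knockout over wild type (horizontal axis, edgeR without the block), of the 8 writers and erasers (purple) and of the genes of 7 related lists (grey), with red bars at the medians. Medians lie between -0.122 for imprinted genes and 0.055 for germline genes.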

How the data were processed

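The authors deposited raw RNA-seq read counts, not normalized, for the 6 whole-testis libraries in 1 table, and an exon length column (another number, in bases) deposited beside it. GSNAP alignment to mm10, featureCounts 1.6.0 and bcl2fastq 2.19.1 are named in the submitters' processing notes. For the strand setting, reads with several matches and the annotation, nothing was given in the sources used here. Columns were joined to samples by title and grouped by genotype. The 92 spike-in rows (1 count in all) were dropped; 49326 of 49671 gene rows matched a GENCODE M21 symbol, and the rest held 0.0311% of counts. Replicates of a group differed by more than counting noise (chi-square per degree of freedom 7.94 to 14.13). The labels do not say whether replicates are separate litters.

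The main test was edgeR 4.0.16 in R 4.3.3 (robust quasi-likelihood F test after filterByExpr and TMM, two-sided; Benjamini-Hochberg over all tested genes, threshold 0.05). CPM uses TMM-scaled totals, SE is the log2 fold change over the root of F, and pair ratios add 0.1 CPM. Same-number libraries had correlated deviations (0.42, 0.26 and 0.28, each over 0.1), so the numbers were taken as pairs; this comes from the same data. DESeq2 1.42.0, limma 3.58.1 voom, other normalizations and filters and left-out libraries were alternatives. The code was tested on simulated data. The genes and lists were chosen with earlier results of these data known. Named genes were Ankrd31, the 8 genes, per list the 2 with the smallest p and the highest per kilobase, the nearest pattern of each, Pcna and Mki67; Dnmt3c, Aire, H19, Dlk1, Ndn, Nnat and Zim1 were added after their values were seen.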

Additional observations from a re-analysis of the deposited data

How the results depend on the processing

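No writer or eraser passed under any of 18 alternatives (17 for Dnmt3l, which the filter of 1 CPM in every library removed). Uhrf1 and Dnmt3l were lower in all of theirs, the others changed sign in some. Leaving out 1 library gave -0.023 to 0.028 for Dnmt1, -0.079 to 0.068 for Dnmt3a, -0.134 to 0.050 for Dnmt3b, -0.274 to 0.012 for Tet1, -0.047 to 0.019 for Tet2, -0.099 to 0.009 for Tet3, -0.695 to -0.074 for Dnmt3l and -0.069 to -0.029 for Uhrf1. Of the list genes it turned the sign of 5, giving -0.060 to 0.132 for Dazl, -0.088 to 0.002 for Ehmt2, -0.139 to 0.011 for Gnas, -0.056 to 0.062 for Mael and -0.113 to 0.014 for Mbd3. Dnmt3a turned to 0.000 with DESeq2 and with RLE size factors, 0.002 without a low-count filter, 0.001 with at least 1 CPM in every library and 0.023 with the replicate block without pair 2. There Dnmt3b turned to 0.004, Tet2 to 0.021 and Mael to -0.023, while Dnmt1 turned to 0.013 without pair 1; Mael was -0.014 with library totals only. The cause was not tested. The values with a turned sign were each smaller than the SE of that gene in the main fit.

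Over all genes, 0 were called, against 8 with the replicate block, 2 with DESeq2, 1 without a low-count filter (30982 genes tested), 14 with DESeq2 and the block, 1 with voom and the block, and 63, 57 and 0 with the block without pair 1, 2 and 3; the 6 fits without 1 library called 0. Ankrd31 passed with the replicate block (-0.821), DESeq2 (-0.836), the block without pair 1 (-0.694) or pair 2 (-0.898), and DESeq2 (-0.815) or voom (-0.830) with the block. The block changed no call among the 8 genes. Imprinted genes had 7 calls with the block without pair 1 (H19, Mest, Plagl1, Peg10, Dlk1, Meg3 and Ndn), and 1, Meg3, with the block without pair 2 and with DESeq2 and the block. Meg3 stood at -0.623, -0.403 and -0.491 in these fits, and Mest at -0.624 in the first. Germline genes had 4 calls without pair 1 (Sycp1, Sycp3, Tex101 and Hormad1). Fits with both DESeq2 or voom and the block, and the test of the replicate number, were chosen after seeing the data. That test called 0 to 4 of the 8 genes when 1 library was left out, 0 without pair 1, 3 without pair 2 and 1 without pair 3. The order of levels changed at 4 of 8 ranks without length scaling and at 2 in wild-type libraries alone. Dnmt3l had the fewest counts of the 8 genes, 16 to 44 a library.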
